A study of Homo sapiens with 4 samples.

Results

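The 10 genes described here encode the TRIM28 and SETDB1 co-repressor, the HUSH complex and the histone chaperones that silence transposable elements in human cells. They are TRIM28, SETDB1, ATF7IP, ZFP57, MPHOSPH8, TASOR, PPHLN1, MORC2, ATRX and DAXX. These genes were taken by symbol and not by their values, though earlier results of these data were known. They hold 155 of the 242542 transcripts that could be matched to a gene annotation, and all 10 were among the 27632 genes with enough counts to be tested. Each gene was given the count of its transcript with the largest mean count. The comparison asks how the levels and the isoform usage of these genes differ between the naïve and the primed state of human embryonic stem cells (hESCs).

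Most transposable elements in mammalian genomes are kept silent by trimethylation of lysine 9 of histone H3 (H3K9me3). KRAB zinc finger proteins bind DNA in an element and recruit TRIM28, which brings in the methyltransferase SETDB1, and ATF7IP stabilises SETDB1. The HUSH complex, made of TASOR, MPHOSPH8 and PPHLN1, spreads and maintains the mark with the help of the ATPase MORC2, while ATRX and DAXX deposit the histone variant H3.3 at silenced repeats. Naïve and primed cells model stages before and after implantation and are known to express different sets of endogenous retroviruses.

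Complementary DNA was sequenced on Nanopore flow cells from 4 libraries of the established hESC line H1, labelled WT, with 2 replicates per state. The naïve cells had been derived from H1 primed cells and grown in FINE culture, a medium with the inhibitors dasatinib, AZD5438, SB590885, PD0325901 and Y-27632 together with LIF, activin A and bFGF, under low oxygen, to 50% confluency. The primed cells were grown in mTeSR on Matrigel under normal oxygen to between 60% and 70% confluency. State, medium, oxygen and confluency therefore cannot be told apart, and both groups come from a single line. Nothing in the labels says that replicates came from separate cultures, so the p-values measure only the spread between these libraries.

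The deposited values are counts of alignments over whole transcript spans, introns included and strand ignored, with a total between 129276054 and 161548901 counts per library. Levels are given as CPM, the counts scaled to a common library size, after trimmed mean of M-values (TMM) scaling, and a count of 3, taken as the upper limit that a count of 0 allows, was worth between 0.0979 and 0.13 CPM. The scaling matters, because all genes together had a median log2 fold change, primed over naïve, of 0.08 with TMM and 0.72 when libraries were scaled by their size alone. The difference of 0.64 was shared by each of the 10 genes, while genes at or near 0 counts in a state shifted less. Ratios between 2 genes of a library do not rest on the scaling. Naïve pluripotency markers summed to 1230 and 1040 CPM in naïve libraries and to 76.8 and 78.4 CPM in primed ones, and primed markers to 145 and 140 CPM against 803 and 709 CPM. Single genes carried much of these sums. DPPA5 held 726 and 600 CPM in naïve libraries. KLF17 differed little, at 95.5 and 95.1 CPM in naïve and 70.8 and 73.0 CPM in primed libraries. CD24 held 143 and 137 CPM of the primed markers in naïve libraries. Trophoblast markers summed to 1680 and 2010 CPM in the naïve libraries against 4.66 and 3.66 CPM in the primed ones. That sum was mostly CGA, the alpha subunit of glycoprotein hormones, with 35747 and 47550 counts against 0 and 1, and 7 of 8 trophoblast markers were called lower in primed cells. The 3 amnion markers were also lower there, at 13.1 and 11.5 CPM in naïve and 4.66 and 3.17 CPM in primed libraries. The fibroblast list went the other way, at 3.51 and 2.55 CPM against 57.5 and 59.5 CPM, with COL1A1 and COL1A2 carrying the sum and the defining marker DCN at 0 or 1 count in each library. In bulk libraries, fewer cells of a type and less RNA per cell cannot be told apart, and the part of these other markers in the differences below was not tested.

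The regions upstream of the 3 genes with the largest changes in level are shown to give their base composition. The windows cover 250 bases before the start of the transcript that gave the gene's value, from RefSeq (GRCh38.p14), read 5′ to 3′ on the gene's strand, with each CG dinucleotide, the site of DNA methylation, in capitals. They are chr6:29681153-29681402 for ZFP57, chr3:56683266-56683515 for TASOR and chr22:30968775-30969024 for MORC2, all on the minus strand.
ZFP57: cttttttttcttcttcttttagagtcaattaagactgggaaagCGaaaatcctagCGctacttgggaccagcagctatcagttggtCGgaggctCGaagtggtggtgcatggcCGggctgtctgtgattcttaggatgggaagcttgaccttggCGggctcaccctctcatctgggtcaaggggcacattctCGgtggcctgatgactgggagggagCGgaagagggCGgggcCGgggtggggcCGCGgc
TASOR: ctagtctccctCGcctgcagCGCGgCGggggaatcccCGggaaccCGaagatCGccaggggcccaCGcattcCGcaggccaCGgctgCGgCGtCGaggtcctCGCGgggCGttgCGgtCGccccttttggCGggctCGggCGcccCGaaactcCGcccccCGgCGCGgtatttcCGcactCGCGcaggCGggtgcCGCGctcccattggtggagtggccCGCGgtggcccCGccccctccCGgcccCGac
MORC2: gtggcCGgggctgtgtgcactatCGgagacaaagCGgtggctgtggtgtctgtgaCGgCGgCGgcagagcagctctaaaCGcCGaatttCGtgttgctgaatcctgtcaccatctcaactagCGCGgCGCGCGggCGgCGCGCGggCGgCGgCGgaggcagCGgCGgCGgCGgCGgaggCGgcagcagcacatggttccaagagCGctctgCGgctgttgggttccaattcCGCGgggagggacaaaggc
The ZFP57 window, of the gene that was far higher in naïve cells, held 12 CG dinucleotides, and 51.5% of all 35116 such windows held fewer. The TASOR and MORC2 windows, of the genes that were higher in primed cells, held 37 and 31, more than 96.0% and 89.1% of all windows. The window of ATF7IP, also higher in primed cells, held 14, more than 55.2% of all windows. That of MPHOSPH8, higher in naïve cells with TMM, held 26, more than 80.4%. The CG number thus did not follow the direction of change. The letters TGCCGC, searched on both strands, occurred 1 time in the TASOR window and 2 times in that of MORC2, did not occur in that of ZFP57, and were present in 12.7% of all windows. No methylation or binding data were analysed here, so these are descriptions of sequence only.

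Of the 10 genes, 8 differed between the states in edgeR's quasi-likelihood test, with a Benjamini-Hochberg adjusted p below 0.05, beside 70.0% of all genes tested. In primed cells 5 of them were higher, where 37.4% of all genes were, and 3 were lower, where 32.6% were, a split that library-size scaling turned into 7 higher and 2 lower. With a log2 fold change beyond 1 in either direction as well, 4 of the 10 passed, beside 47.1% of all genes. The median log2 fold change of the 10 was 0.32, against 0.08 for all genes. These shares are near those of all genes, so the counts alone are not a result about the silencing genes. ZFP57, DAXX and MPHOSPH8 were higher in naïve cells, and TASOR, MORC2, ATF7IP, ATRX and TRIM28 were higher in primed cells.

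**Figure D1:**
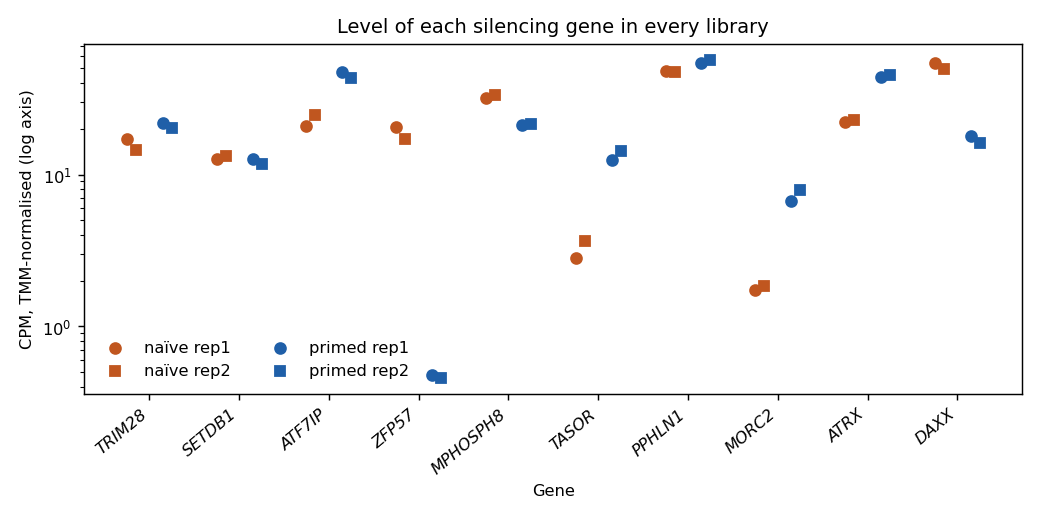
Level of each of the 10 genes in every library, in TMM-normalised CPM on a log axis, with naïve libraries in orange and primed libraries in blue, and a point for each replicate. ZFP57 fell from 20.4 and 17.1 CPM in naïve to 0.476 and 0.457 CPM in primed libraries, and TASOR and MORC2 stood lowest in the naïve libraries.

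Among the genes of the TRIM28 and SETDB1 arm, ZFP57 differed most. ZFP57, on chromosome 6 (29672483 to 29681152, minus strand), is a KRAB zinc finger protein that recruits TRIM28 to methylated imprinting control regions. In naïve cells its libraries held 470 and 437 counts, and in primed cells 14 and 14. The naïve level, 18.8 ± 2.3 CPM (SD, n = 2), was 40.2-fold the primed level of 0.467 ± 0.0134 CPM (SD, n = 2). The log2 fold change of -5.32 ± 0.25 (SE; edgeR's quasi-likelihood test, Benjamini-Hochberg adjusted p = 1.05e-22) was lower than that of all but 1.45% of the genes tested. Its span overlaps no other gene, and under library-size scaling the log2 fold change was -4.68.

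TRIM28 itself, the scaffold that KRAB zinc finger proteins recruit, differed far less than ZFP57. Its counts on chromosome 19 (58544064 to 58550715, plus strand) were 393 and 368 in naïve and 645 and 616 in primed libraries, or 17.1 and 14.4 against 21.9 and 20.1 CPM. The primed libraries were both above the naïve ones, with a log2 fold change of 0.42 ± 0.16 (SE; edgeR's quasi-likelihood test, Benjamini-Hochberg adjusted p = 0.0175). Library-size scaling gave 1.06 (adjusted p = 3.31e-06, same test), where the median gene had 0.72. TRIM28-214, which shares no base with another gene, gave 0.80 (adjusted p = 0.00012, same test). The call was lost without naïve rep2 (log2 fold change 0.24, adjusted p = 0.289) and in DESeq2 (0.37, adjusted p = 0.0753). Within a library, ZFP57 had 1.2 and 1.19 counts per TRIM28 count in naïve cells and 0.0217 and 0.0227 in primed cells, a 53.6-fold higher ratio in naïve cells that needs no scaling between libraries.

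SETDB1, the H3K9 methyltransferase, had 290 and 336 counts in naïve and 369 and 362 in primed libraries over its span on chromosome 1 (150926339 to 150964735, plus strand). At 12.6 and 13.2 CPM against 12.6 and 11.8 CPM the groups almost met, and the log2 fold change of -0.08 ± 0.16 (SE) did not pass edgeR's quasi-likelihood test (Benjamini-Hochberg adjusted p = 0.668). Under library-size scaling it was 0.56 (adjusted p = 0.00411), below the 0.72 of the median gene. The 3′ end of its span also lies within CERS2 on the opposite strand.

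ATF7IP, the partner that protects SETDB1 from degradation, did rise. It had 484 and 627 counts in naïve and 1381 and 1324 in primed libraries on chromosome 12 (14365682 to 14502930, plus strand), in a span that overlaps no other gene. The primed level of 45.1 ± 2.64 CPM (SD, n = 2) was 1.98-fold the naïve level of 22.8 ± 2.55 CPM, with a log2 fold change of 0.98 ± 0.15 (SE; edgeR's quasi-likelihood test, Benjamini-Hochberg adjusted p = 2.61e-07). The number of ATF7IP counts per SETDB1 count was accordingly 1.67 and 1.87 in naïve cells and 3.74 and 3.66 in primed cells.

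**Figure D2:**
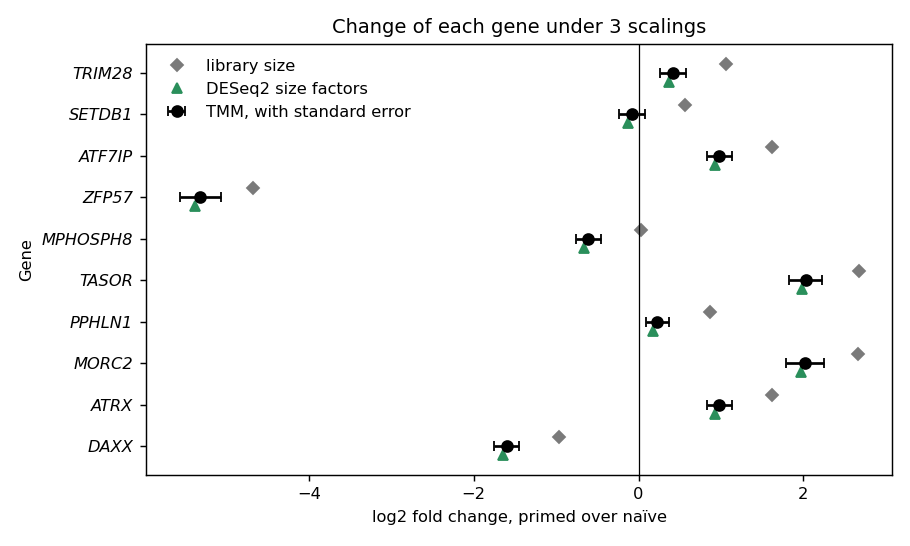
Log2 fold change, primed over naïve, of each gene under 3 scalings, with black points and bars for the TMM estimate and its standard error, grey diamonds for library size and green triangles for DESeq2 size factors. Library-size values lie 0.64 to the right of the TMM values, which puts MPHOSPH8 at 0.03 and SETDB1 at 0.56, while ZFP57 and DAXX stay left of 0.

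Of the HUSH subunits, TASOR rose in primed cells, PPHLN1 did not pass the test, and MPHOSPH8 was lower with TMM but not with library-size scaling. TASOR, the scaffold of the complex, had 65 and 93 counts in naïve libraries and 364 and 434 in primed libraries on chromosome 3 (56620132 to 56683265, minus strand). Its level was 3.24 ± 0.585 CPM in naïve and 13.3 ± 1.27 CPM in primed cells (SD, n = 2 each), 4.1-fold higher in primed. The log2 fold change was 2.03 ± 0.20 (SE; edgeR's quasi-likelihood test, Benjamini-Hochberg adjusted p = 2.91e-12). The last 1631 bases of the span are shared with CCDC66 on the opposite strand, but TASOR-209, which shares no base with another gene, had 60 and 81 counts against 290 and 349.

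MPHOSPH8, the subunit whose chromodomain binds H3K9me3, had 733 and 847 counts in naïve and 619 and 662 in primed libraries on chromosome 13 (19633659 to 19673441, plus strand). With TMM this was 31.8 and 33.2 CPM against 21.1 and 21.6 CPM, a log2 fold change of -0.61 ± 0.15 (SE; edgeR's quasi-likelihood test, Benjamini-Hochberg adjusted p = 0.000428). The direction rests on the scaling, since library size gave 0.03 (adjusted p = 0.862), and the call was lost without primed rep1 (-0.42, adjusted p = 0.0521). Relative to the median gene, its log2 fold change was -0.69 under both scalings. TASOR had 0.0887 and 0.11 counts per MPHOSPH8 count in naïve cells and 0.588 and 0.656 in primed cells, a 6.27-fold higher ratio in primed cells.

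PPHLN1, the third subunit (periphilin), had 1101 and 1211 counts in naïve and 1607 and 1741 in primed libraries, or 47.8 and 47.5 against 54.6 and 56.8 CPM. The log2 fold change of 0.23 ± 0.14 (SE) did not pass edgeR's quasi-likelihood test (Benjamini-Hochberg adjusted p = 0.157), though with library size it was 0.87 (adjusted p = 8.14e-06). The span, on chromosome 12 (42238447 to 42441947, plus strand), encloses ZCRB1 on the opposite strand, which had 813 and 887 counts against 1222 and 1209. Only between 38.0% and 41.6% of the alignments in the span touched PPHLN1-221, which begins at the edge of ZCRB1, so the PPHLN1 value and that of its neighbour cannot be told apart. PPHLN1-211, which shares no base with another gene, had 227 and 227 counts in naïve and 342 and 317 in primed libraries. With TMM this was 9.85 and 8.91 against 11.6 and 10.3 CPM. The log2 fold change of 0.28 did not pass edgeR's quasi-likelihood test (adjusted p = 0.149).

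MORC2, the ATPase that HUSH recruits to compact chromatin, was the lowest of the 10 in naïve cells. It had 40 and 47 counts there and 197 and 241 in primed libraries on chromosome 22 (30925130 to 30968774, minus strand). The primed level of 7.28 ± 0.827 CPM was 4.07-fold the naïve level of 1.79 ± 0.0764 CPM (SD, n = 2 each), with a log2 fold change of 2.02 ± 0.23 (SE; edgeR's quasi-likelihood test, Benjamini-Hochberg adjusted p = 2.66e-10). The antisense gene MORC2-AS1 shares 7320 bases with it, and its longest transcript had 25 and 38 counts against 119 and 155, which cannot be told apart from MORC2 without strand. In MORC2-205, which lies outside the antisense gene, the counts were 10 and 12 in naïve and 33 and 60 in primed libraries, and edgeR's quasi-likelihood test gave a log2 fold change of 1.81 (adjusted p = 0.000226).

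ATRX and DAXX, which work as a pair, changed in opposite directions. DAXX, the chaperone that binds H3.3, had 1252 and 1255 counts in naïve and 530 and 491 in primed libraries on chromosome 6 (33318558 to 33323010, minus strand). Its naïve level of 51.8 ± 3.6 CPM was 3.04-fold the primed level of 17.0 ± 1.41 CPM (SD, n = 2 each), with a log2 fold change of -1.60 ± 0.15 (SE; edgeR's quasi-likelihood test, Benjamini-Hochberg adjusted p = 1.83e-12). Part of the span is shared with ENSG00000285064, and DAXX-208, which is not, had 1148 and 1115 counts against 488 and 437.

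ATRX, the chromatin remodeller of the pair, had 506 and 586 counts in naïve and 1285 and 1383 in primed libraries over its span on chromosome X (77504880 to 77786216, minus strand). It rose from 22.5 ± 0.728 to 44.4 ± 1.03 CPM (SD, n = 2 each), a log2 fold change of 0.98 ± 0.15 (SE; edgeR's quasi-likelihood test, Benjamini-Hochberg adjusted p = 1.97e-07). There were 0.404 and 0.467 ATRX counts per DAXX count in naïve cells and 2.42 and 2.82 in primed cells. The ratio was therefore 6.02-fold higher in primed cells, with no overlap between the states.

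Levels of different genes were compared per kilobase of exonic length of the transcript that gave the value. The counts also hold alignments to introns and to either strand, over spans from 4.45 kb for DAXX to 281 kb for ATRX. The scale is therefore rough, and the order below describes these values only. In naïve cells PPHLN1 (26.8 CPM per kb, its neighbour included) and DAXX (19.9) stood highest, followed by ZFP57 (9.02), MPHOSPH8 (7.67), TRIM28 (4.68), SETDB1 (2.9), ATF7IP (2.58), ATRX (2.01), TASOR (0.396) and MORC2 (0.316). In primed cells the order was PPHLN1 (31.4 CPM per kb), DAXX (6.53), TRIM28 (6.25), ATF7IP (5.11), MPHOSPH8 (5.03), ATRX (3.98), SETDB1 (2.75), TASOR (1.62), MORC2 (1.29) and ZFP57 (0.224). ZFP57 thus went from the third place to the last. The libraries of DAXX and TRIM28 overlapped in primed cells, as did those of ATF7IP and MPHOSPH8, so the order within these pairs is not resolved.

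Isoform usage was tested on all 155 transcripts, and 3 were called at an adjusted p under 0.05 with a change in mean isoform fraction (dIF, primed minus naïve) beyond 0.1. Over all genes 0.556% of isoforms were called, and 3.62% of genes had a called isoform. All 3 were short transcripts of MPHOSPH8 downstream of the middle of its span. MPHOSPH8-205 lies wholly inside MPHOSPH8-203, and an alignment is counted for each span it touches, so the 3 calls are not independent. The isoform fractions are built from these span counts. A change of isoform therefore cannot be told apart from a change in where alignments lie along the gene. Among the called isoforms the largest change was in MPHOSPH8-205, with a dIF of 0.118 (edgeR's diffSpliceDGE, Benjamini-Hochberg adjusted p = 4.95e-05) and isoform fractions of 7.56% and 8.61% in naïve against 21.2% and 18.6% in primed libraries. MPHOSPH8-203 had a dIF of 0.115 (adjusted p = 4.29e-05, same test) and MPHOSPH8-204 one of 0.103 (adjusted p = 0.000276, same test). MPHOSPH8-202 and MPHOSPH8-201 had larger dIF values, of -0.199 and -0.137, but did not pass the same test (adjusted p = 0.638 and 0.796). None of the 3 was called when isoform fractions were computed without length, because each dIF then fell below 0.1.

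Since short spans lie inside long ones, counts of an inner span give the share of a gene's alignments that touch that stretch. MPHOSPH8-203, at the 3′ end, was touched by 4.09% (95% Wilson interval 2.88% to 5.78%) and 5.19% (3.89% to 6.9%) of MPHOSPH8 alignments in the naïve libraries. In the primed libraries the shares were 20.4% (17.4% to 23.7%) and 16.3% (13.7% to 19.3%). The state with more MPHOSPH8 counts thus had fewer at this 3′ stretch, which received 30 and 44 counts in naïve and 126 and 108 in primed libraries, or 1.3 and 1.73 against 4.28 and 3.52 CPM. Upstream of the middle of the gene, MPHOSPH8-202 was touched by 34.4% and 31.8% against 34.1% and 28.5% of alignments. At least 60.2% and 61.0% of the naïve alignments and 36.8% and 48.5% of the primed ones touched none of these stretches. The lower MPHOSPH8 value of primed cells thus describes its whole span, and the counts at its 3′ end were higher there. Span counts do not separate spliced messages from intronic alignments.

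**Figure D3:**
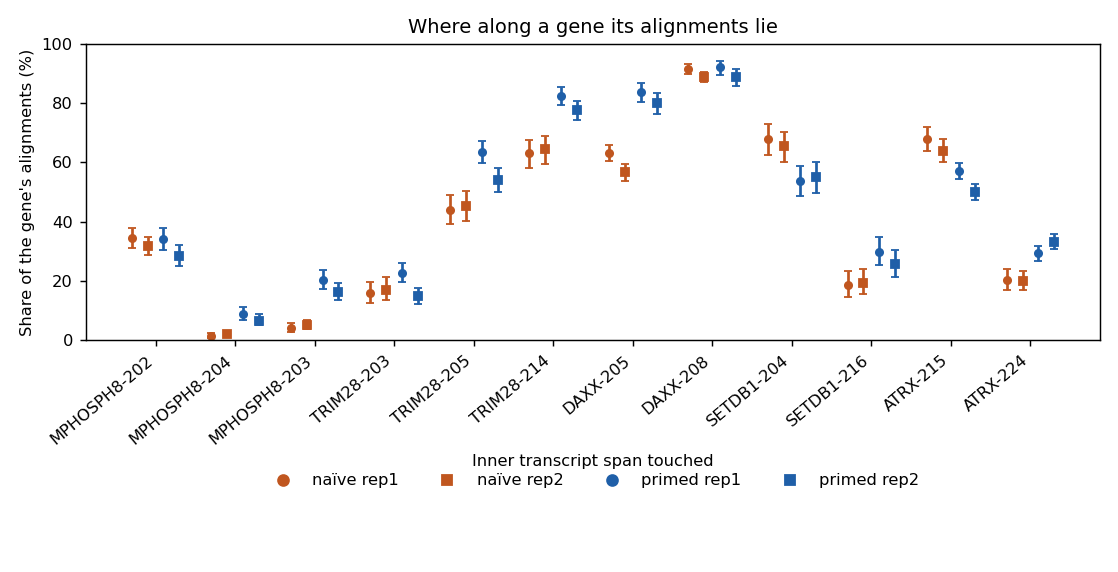
Share of a gene's alignments, in percent, that touched inner transcript spans of MPHOSPH8, TRIM28, DAXX, SETDB1 and ATRX in each library, with bars for 95% Wilson intervals, which cover counting error only. MPHOSPH8-203 lies at 4.09% and 5.19% in naïve and at 20.4% and 16.3% in primed libraries.

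Coverage differed along other members too. The 5′ stretch DAXX-205, which lies wholly inside the overlapping gene ENSG00000285064 on the same strand, was touched by 63.2% and 56.7% of DAXX alignments in naïve and 83.8% and 80.2% in primed libraries, while the 3′ stretch DAXX-208 stood between 88.8% and 92.1% throughout. ENSG00000285064 had 898 and 830 counts in naïve and 661 and 1001 in primed libraries while DAXX fell, so its alignments and those of DAXX cannot be told apart at DAXX-205. In TRIM28 the 3′ stretch TRIM28-213 hardly differed, at 96.7% and 94.3% in naïve and 96.6% and 97.7% in primed libraries. TRIM28-214, also in its 3′ part, was touched by 63.1% and 64.4% in naïve against 82.6% and 77.8% in primed libraries. In SETDB1 the 5′ stretch SETDB1-204 went the other way, at 67.9% and 65.5% against 53.9% and 55.0%. ATRX-215, also 5′, showed 68.0% and 64.0% against 57.2% and 50.1%, and ATRX-224, in the 3′ part, 20.2% and 20.0% against 29.3% and 33.3%. These shares were not tested. Across all genes with spans of 10 kb or more, the share touching a stretch in the 5′ part had a median difference of -3.24 percentage points, primed minus naïve, and was higher in primed cells in 33.7% of 5702 genes. For 3′ stretches of such genes the median was 1.43 points, and the share was higher in primed cells in 59.2% of 6788 genes. In genes with spans under 10 kb, as TRIM28 and DAXX have, the medians were -0.728 points for 5′ and 0.535 points for 3′ stretches. The stretches of ATRX and SETDB1 thus differed in the direction of the medians for spans of 10 kb or more. So did the 3′ stretch MPHOSPH8-203, and TASOR-203, a 3′ stretch partly shared with CCDC66. TASOR-203 was touched by 20.0% and 30.1% of alignments in naïve and 39.0% and 32.7% in primed libraries. MORC2 went the other way, since MORC2-203, a 3′ stretch shared with MORC2-AS1, was touched by 47.5% and 55.3% of alignments in naïve and 22.3% and 33.2% in primed libraries, on as few as 19 counts. The 3′ stretch ATF7IP-206 was touched by 26.7% and 25.8% of alignments in naïve and 23.2% and 21.4% in primed libraries.

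The wider set of partner genes was described by lists of known components, with edgeR's quasi-likelihood test and the same threshold. Most genes named from these lists share part of their span with another gene, so their counts can include those of a neighbour. Across the lists 41 genes were called, where 70.0% of all genes tested were called. The number was 29 when gene values came only from transcripts that share no base with another gene. Genes without such a transcript drop out of that setting, so the lower number is not a count of calls lost to neighbours. Of 19 co-repressors and paralogs of TRIM28, 4 were higher and 7 lower in primed cells, beside 37.4% and 32.6% of all genes. The median log2 fold change was -0.14, and none of the lists was tested against all genes. MTA1, a subunit of the NuRD deacetylase, rose by 2.42 ± 0.21 (SE) on the log2 scale, and TRIM24, a paralog of TRIM28, by 2.08 ± 0.17. CHD3, a NuRD ATPase, had a log2 fold change of -1.29 ± 0.23 and TRIM33, another paralog, of -1.01 ± 0.16. Paralogs of TRIM28 therefore differed in both directions while TRIM28 changed by 0.42. With library-size scaling the split over this list was 11 higher and 2 lower.

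Of 9 genes of H3K9 methylation and heterochromatin protein 1, 3 were higher and 3 lower, beside 37.4% and 32.6% of all genes. The median log2 fold change was 0.23. SUV39H2, an H3K9 methyltransferase, rose by 1.53 ± 0.20 (SE) on the log2 scale and CBX5, which encodes HP1 alpha, by 1.27 ± 0.15. ATF7IP2, the paralog of ATF7IP, had a log2 fold change of -0.95 ± 0.15 and CBX1, which encodes HP1 beta, of -0.75 ± 0.14. ATF7IP and its paralog thus changed in opposite directions, although with library-size scaling ATF7IP2 was at -0.31 and did not pass (adjusted p = 0.058), and 6 of the 9 genes were then called higher.

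Of 7 HUSH partners and MORC genes, 6 were tested. In primed cells 2 were higher and 4 lower, beside 37.4% and 32.6% of all genes. The median log2 fold change was -0.97, while library-size scaling gave 2 higher and 2 lower. TNRC18, a reader of H3K9me3 at endogenous retroviruses, had 414 and 443 counts in naïve and 73 and 93 in primed libraries, a log2 fold change of -2.68 ± 0.19 (SE). MORC3, a relative of MORC2, had 1047 and 1050 against 384 and 505 counts, a log2 fold change of -1.55 ± 0.16. RESF1, which binds SETDB1, rose by 0.60 ± 0.15 and TASOR2, the paralog of TASOR, by 0.55 ± 0.17. The MORC2 and MORC3 counts moved apart, with 0.0382 and 0.0448 MORC2 counts per MORC3 count in naïve cells and 0.513 and 0.477 in primed cells.

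Of 8 H3.3 genes and their chaperones, 3 were higher and 3 lower, beside 37.4% and 32.6% of all genes. The median log2 fold change was -0.08, while library-size scaling gave 5 higher and 1 lower. ASF1B, a histone chaperone of dividing cells, rose by 1.36 ± 0.19 (SE) on the log2 scale, and CABIN1, of the HIRA complex, had a log2 fold change of -0.66 ± 0.16 that became -0.02 with library-size scaling. The genes H3-3A and H3-3B encode the same H3.3 protein. H3-3A had 8778 and 9853 counts in naïve and 18565 and 18489 in primed libraries, and H3-3B had 11934 and 11841 against 6421 and 5984. The main source of H3.3 counts was thus H3-3B in naïve and H3-3A in primed cells, with 0.736 and 0.832 against 2.89 and 3.09 H3-3A counts per H3-3B count. Both genes have processed copies elsewhere in the genome, and alignments at several places were counted at each, so their counts are uncertain.

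Of 9 KRAB zinc finger genes known to bind retroelements or imprinted regions, ZFP57 aside, 4 were higher and 1 was lower in primed cells. Over all genes 37.4% were higher and 32.6% lower. The median log2 fold change of the list was 0.28, and library-size scaling gave 7 higher and 1 lower. The near-identical paralogs ZNF587 and ZNF417 rose by 0.86 ± 0.16 (SE) and 0.67 ± 0.20 on the log2 scale, and shared alignments make their split uncertain. The gene that was lower, ZNF534, had 53 and 72 counts against 25 and 30. No gene of this list had a change as large as that of ZFP57.

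The counts hold no rows for repeats themselves, so 7 genes whose transcripts start in HERVH elements were taken. Their span counts do not measure transcription from the HERVH start, and most share bases with another gene. Other retrovirus families are not covered, so the list is not a readout of endogenous retroviruses as a whole. Of the 7 genes, 6 were higher and 1 was lower in primed cells, with a median log2 fold change of 0.85. Library-size scaling gave the same counts. Over all genes 37.4% were higher and 32.6% lower, and with 7 genes nothing is read from the difference. LINC00458 had 216 and 361 counts in naïve and 5627 and 5110 in primed libraries, and LINC01108 had 16 and 17 against 162 and 156. ABHD12B went the other way, at 1900 and 1869 against 1361 and 863 counts, a log2 fold change of -1.07 ± 0.16 (SE; edgeR's quasi-likelihood test, Benjamini-Hochberg adjusted p = 2.97e-07).

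**Figure D4:**
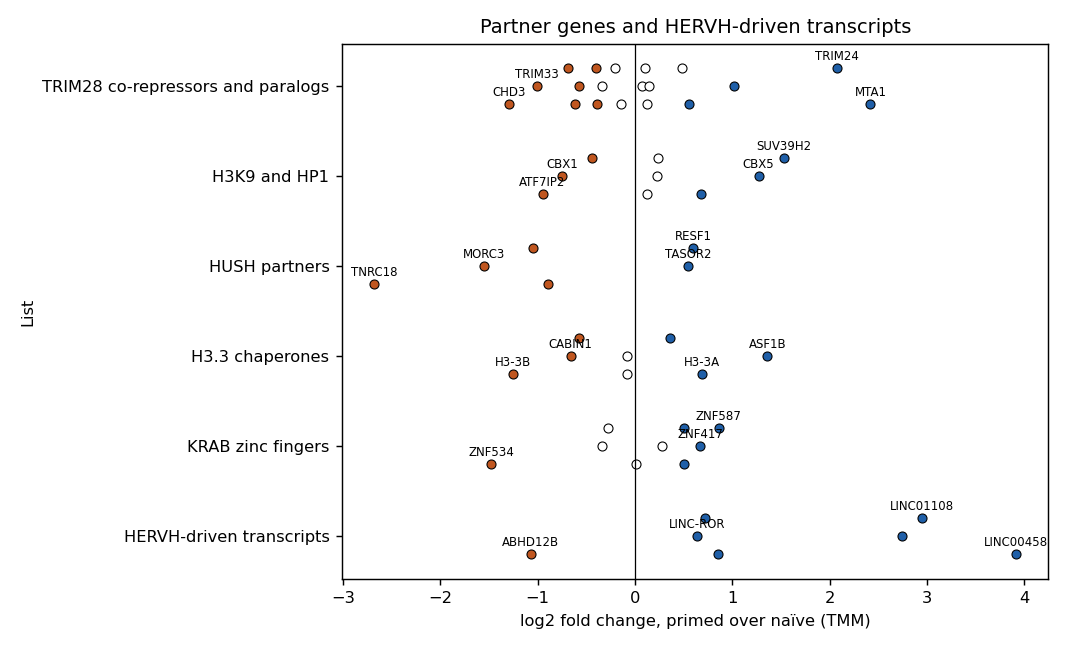
Log2 fold change (TMM), primed over naïve, of each tested gene of the 6 lists, with filled points for genes called by edgeR's quasi-likelihood test and open points for the others, and names at the outermost called genes. Points are spread vertically only to separate them. TNRC18 lies at -2.68 among the HUSH partners, and LINC00458 at 3.92 among the HERVH-driven transcripts.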

How the data were processed

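RNA was extracted with Trizol, and libraries were made with the Nanopore Ligation Sequencing Kit 1D. The authors aligned reads to GRCh38 with minimap2 and deposited raw counts per Ensembl 105 transcript from featureCounts 2.0.0, without normalization. An alignment was counted for every transcript span it overlapped and at every place it aligned, so counts are not molecules. Of 244825 transcripts, 242542 were matched to GENCODE 44 by identifier, and the 2283 others, with 1.0% of the counts, were left out.

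Gene values came from the transcript with the largest mean count, and a gene was tested where 2 or more libraries reached 10 counts. The test was edgeR 4.0.16 (R 4.3.3) with TMM, a quasi-likelihood fit with state as the term, two-sided, with Benjamini-Hochberg adjustment over all genes tested. Isoform usage was tested with diffSpliceDGE over all isoforms with the same filter. The fits were tested on simulated data first. SE is the log2 fold change divided by the square root of F. Alternatives were DESeq2 1.42.0, library size, other filters, other gene values, a replicate block, other isoform settings and each library left out. Log2 fold changes less the median of all genes, and the stretches within genes, were added after seeing the data. Figures and intervals used pandas 2.3.3 and scipy 1.17.1.

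The 10 genes and the lists were chosen with earlier results of these data known. Within a list, the genes named were the 2 called genes that moved furthest each way, given a mean count of at least 50 and no overlap between states. ZNF534, MPHOSPH8-203, MPHOSPH8-204 and the transcripts named for overlaps or stretches were chosen after their values were seen. Replicates were distinct libraries, with a chi-square per degree of freedom of 13.2 (naïve) and 7.82 (primed).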

Additional observations from a re-analysis of the deposited data

How the results depend on the processing

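Across the alternatives, ZFP57, DAXX, TASOR, MORC2, ATF7IP and ATRX kept their direction and stayed past the adjusted p threshold. The fold threshold was less stable, since ATF7IP and ATRX (0.98 each) crossed a log2 fold change of 1 with library size (1.62 each) and at least 50 counts (1.08 each), and DAXX fell short of it with library size (-0.96). SETDB1, which was not called, changed sign with library size (0.56), with at least 50 counts (0.02), without primed rep1 (0.04) and without primed rep2 (0.13), and ran from -0.17 to 0.13 with a library left out. MPHOSPH8 changed sign with library size (0.03) and lost its call with counts summed over transcripts (-0.35, adjusted p = 0.0806, edgeR). TRIM28 kept its direction throughout, from 0.24 without naïve rep2 to 1.06 with library size, but lost its call in DESeq2 (0.37). PPHLN1 passed with library size (0.87), with at least 50 counts (0.33) and without primed rep1 (0.42). Called isoforms numbered 3, but 0 with fractions computed without length, 5 with no dIF threshold and 0 with dIF beyond 0.2. With a library left out, the lone library of its state is assumed to vary like the other state. Then 7 to 8 of the 10 genes were called, 4 to 6 higher and 2 to 3 lower, 4 to 6 passed with the fold threshold, 34 to 38 genes of the lists were called, and 2 to 3 isoforms. No pairing of the libraries by replicate number was seen (correlation of deviations 0.0593 over 27632 genes), and with the replicate number as a block 8 genes and 3 isoforms were called, as without it. Low counts limit ZFP57 in primed cells, with 14 counts per library, and MORC2 in naïve cells.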
